A study of Mus musculus with 16 samples.

Results

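The genes described are the phase II conjugation enzymes of mouse liver, namely glutathione transferases (GST), glucuronosyltransferases (UGT) and sulfotransferases (SULT). They were chosen by gene symbol, as the alpha, kappa, mu, omega, pi, theta and zeta Gst genes, the Ugt1, Ugt2 and Ugt3 genes and the Sult genes with an expected count of 10 or more in at least 4 libraries. Such a symbol was carried by 64 of the 51912 genes counted, and 46 of these reached the limit, made up of 20 of 22 GST genes, 17 of 21 UGT genes and 9 of 21 SULT genes. Close to the limit, Gsta1 and Sult3a1 reached 10 counts in 8 libraries, Sult1e1 in 12 and Ugt2b38 in 14, while Gsto2, Ugt1a2 and Ugt1a8 reached it in 1 library each and were left out. For Sult3a1 these were the 8 low isoleucine libraries, and no control library reached 10 counts. The limit therefore let it in only through the diet on which it is higher. For diet, the edgeR count of genes that passed and the counts of groups that did not overlap are also given without it. Other diet counts include it where this is said. For Gsta1 they were 7 refed libraries and 1 fasted library. The feeding count of groups that did not overlap is therefore also given without Gsta1, and some other feeding counts include it. Sult3a2 had at most 1 count in any library and was also left out.

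Livers came from male mice fed, from 10 weeks of age and for 3 weeks, a control diet of amino acids or one in which isoleucine, a branched-chain amino acid that animals cannot make, was low. At 13 weeks of age the mice were sampled either fasted for 16 h or refed, and the labels do not give the length of refeeding. This made 4 groups of 4 libraries, called control fasted, low isoleucine fasted, control refed and low isoleucine refed, and strain and genotype are not given in the labels. The labels give every library of a group the same number (1, 2, 7 or 9), and what this number marks cannot be told apart from diet and feeding state.

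Phase II enzymes join a polar group to drugs, hormones, bile pigments and reactive metabolites, which makes these compounds easier to carry into bile or urine. GST enzymes use glutathione, UGT enzymes use UDP-glucuronic acid and act in the endoplasmic reticulum, and SULT enzymes use the sulfate donor PAPS in the cytosol. Hepatocytes are the main site of these reactions, and several of the genes are known to differ between male and female mouse liver.

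Library totals lay between 24368656 and 34002955 counts, and the 46 genes together took 0.729% to 0.992% of them. All 7 hepatocyte markers examined (Alb, Apoa1, Ttr, Serpina1a, Hnf4a, Cps1 and Tat) were detected, with a summed level of 61020 to 114100 CPM (counts scaled by TMM to a common library size, the unit of all levels given). Control refed library 4 stood apart, with the highest scaling factor (1.21) and the highest summed Kupffer cell (371 CPM), endothelial (236 CPM), stellate (505 CPM) and lymphocyte (9.70 CPM) markers of all 16 libraries. In such bulk tissue, fewer cells of a type and less RNA per cell cannot be told apart. The labels do not state that the libraries of a group are separate mice, and if they are not, the p-values measure only the spread between these samples.

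The genes lie mostly in clusters of related copies. In the GENCODE M21 annotation 7 Ugt1a genes start at separate first exons on chromosome 1 and end within 1005 bases of each other, because they share their last exons. Of the windows of 75 bases in their transcripts, 25.2% (Ugt1a6b) to 48.8% (Ugt1a6a) occur in no other gene, so most of each gene's reads could be split among its neighbours. The corresponding share was 15.3% for Gsta1, 49.9% for Gstp2, 63.4% for Gsta2, 70.8% for Gstp1, 72% for Ugt2b38 and 69.6% for Ugt2b5, and the values of these genes carry the same uncertainty. A further 8 Ugt2 genes lie on chromosome 5 and 7 Gstm genes on chromosome 3.

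Levels were compared between genes per kilobase of exon, as the mean over the 16 libraries in CPM per kilobase. The length was that of all annotated exons of a gene merged, whichever transcripts the liver uses, so the order depends on it. Ugt2b5, one of the steroid-conjugating Ugt2b enzymes, was the highest of the 46 at 413, followed by Ugt1a1, the bilirubin-conjugating enzyme, at 330. Among the sulfotransferases, Sult2a8 (295), a bile acid sulfotransferase, and Sult1a1 (282), which sulfates phenols, stood far above Sult1d1 (41.5) and the 6 others (0.366 to 7.23). Among the GST genes, Gstm1 (236), Gstp1 (235) and Gsta3 (221) were nearly level by this measure, and their order changed between groups. Their merged exons were 1473, 1548 and 4344 bases long, and not divided by length they stood at 348, 364 and 961 CPM. The group means per kilobase ran from 224 to 246 for Gstm1, from 125 to 366 for Gstp1 and from 142 to 286 for Gsta3. At the low end, Gsta1, Gstp2, Ugt2b37, Ugt1a7c, Ugt1a10 and Sult3a1 each had a mean under 1 CPM per kilobase.

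Promoter sequences are given for the genes on which the diet and feeding results turn, so that their start regions can be read beside their values. RefSeq (GRCm38.p6) held windows of 250 bases before and 50 bases after a start site for 41 of the 46 genes. The windows lie at chr1:88070529-88070828 on the plus strand for Ugt1a9, chr1:88134559-88134858 on the plus strand for Ugt1a6a, chr19:4037863-4038162 on the minus strand for Gstp1, chr10:33857472-33857771 on the plus strand for Sult3a1, chr5:87424154-87424453 on the minus strand for Ugt2b38, chr5:87254739-87255038 on the minus strand for Ugt2b37, chr1:21240335-21240634 on the plus strand for Gsta3 and chr3:107969125-107969424 on the minus strand for Gstm3. Capitals mark matches on either strand to 6 short motifs, and every window is written 5′ to 3′ along its gene.
Ugt1a9: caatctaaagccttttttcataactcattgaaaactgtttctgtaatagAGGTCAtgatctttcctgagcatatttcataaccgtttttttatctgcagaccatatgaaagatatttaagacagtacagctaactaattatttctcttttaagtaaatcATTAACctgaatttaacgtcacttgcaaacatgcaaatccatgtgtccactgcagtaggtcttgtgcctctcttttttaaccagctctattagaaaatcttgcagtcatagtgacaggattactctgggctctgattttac
Ugt1a6a: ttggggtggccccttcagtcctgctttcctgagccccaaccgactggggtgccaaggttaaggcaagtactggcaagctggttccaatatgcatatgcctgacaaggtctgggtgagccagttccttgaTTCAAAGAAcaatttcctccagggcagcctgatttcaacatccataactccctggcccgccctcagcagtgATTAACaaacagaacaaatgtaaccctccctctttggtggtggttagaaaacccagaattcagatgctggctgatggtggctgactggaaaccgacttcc
Gstp1: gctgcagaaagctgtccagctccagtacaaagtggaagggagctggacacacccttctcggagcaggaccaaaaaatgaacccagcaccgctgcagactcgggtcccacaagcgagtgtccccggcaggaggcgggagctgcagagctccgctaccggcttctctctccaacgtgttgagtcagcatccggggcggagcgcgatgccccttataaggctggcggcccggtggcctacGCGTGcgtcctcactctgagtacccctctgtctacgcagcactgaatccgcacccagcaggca
Sult3a1: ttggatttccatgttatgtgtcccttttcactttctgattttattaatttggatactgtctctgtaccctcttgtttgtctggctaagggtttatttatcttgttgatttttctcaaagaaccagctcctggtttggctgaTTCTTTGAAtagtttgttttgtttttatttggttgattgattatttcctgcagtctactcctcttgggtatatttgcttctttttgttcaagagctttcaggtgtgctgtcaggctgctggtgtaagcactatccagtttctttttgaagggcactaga
Ugt2b38: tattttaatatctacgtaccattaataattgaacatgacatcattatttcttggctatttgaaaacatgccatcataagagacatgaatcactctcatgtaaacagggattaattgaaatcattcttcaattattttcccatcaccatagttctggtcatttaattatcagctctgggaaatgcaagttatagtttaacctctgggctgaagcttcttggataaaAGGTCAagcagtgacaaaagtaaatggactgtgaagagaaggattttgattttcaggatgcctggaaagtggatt
Ugt2b37: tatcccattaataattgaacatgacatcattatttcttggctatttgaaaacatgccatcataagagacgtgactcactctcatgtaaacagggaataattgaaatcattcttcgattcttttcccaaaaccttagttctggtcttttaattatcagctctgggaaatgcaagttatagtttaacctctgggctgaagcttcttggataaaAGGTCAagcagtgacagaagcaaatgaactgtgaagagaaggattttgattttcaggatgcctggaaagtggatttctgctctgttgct
Gsta3: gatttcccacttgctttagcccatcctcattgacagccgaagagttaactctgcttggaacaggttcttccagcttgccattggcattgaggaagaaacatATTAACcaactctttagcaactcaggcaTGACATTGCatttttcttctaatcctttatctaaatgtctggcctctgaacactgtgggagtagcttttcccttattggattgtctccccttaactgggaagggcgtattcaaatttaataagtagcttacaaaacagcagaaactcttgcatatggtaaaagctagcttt
Gstm3: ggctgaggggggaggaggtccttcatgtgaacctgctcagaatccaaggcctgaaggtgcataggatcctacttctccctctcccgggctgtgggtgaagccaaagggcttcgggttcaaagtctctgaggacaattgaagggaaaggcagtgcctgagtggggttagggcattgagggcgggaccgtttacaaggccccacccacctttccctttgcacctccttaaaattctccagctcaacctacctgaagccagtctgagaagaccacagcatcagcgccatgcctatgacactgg

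The motifs were TGACNNNGC, the core of the antioxidant response element (in 12.4% of all 32851 RefSeq windows of this length), and TTCNNNGAA, the core bound by STAT5 (8.3%). The others were GCGTG, the core of the xenobiotic response element (32.4%), GTTAAT, one arm of the HNF1 palindrome (7.1%), AGGTCA, a core bound by nuclear receptors (16.3%), and TATAAA (13.6%). Among the 41 genes these were found in 3, 4, 9, 9, 12 and 7 genes. Gsta3 held TGACATTGC at position -121 from its start site. TTCNNNGAA was matched in Ugt1a6a at -121 and in Sult3a1 at -109, and GCGTG in Gstp1 at -13. Ugt1a9 held AGGTCA at -201. Ugt1a9 (at -91), Ugt1a6a (at -50) and Gsta3 (at -149) held the reverse complement of GTTAAT. Ugt2b38 and Ugt2b37 both held AGGTCA, at -25 and -39, and their windows were identical at 271 of 286 aligned bases (94.8%). The window of Gstm3 held none of the 6. A match is a description of letters and not of binding.

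The first question was what the low isoleucine diet did to these genes in fasted mice. With edgeR's quasi-likelihood test and Benjamini-Hochberg adjustment over all 14920 genes tested, 5 of the 46 genes passed 0.05 (10.9%), against 0.771% of all genes. Under the low isoleucine diet Ugt1a9 and Sult3a1 were higher (2 of 46, against 0.328% of all genes), and Gstp1, Ugt1a6a and Ugt1a6b were lower (3 of 46, against 0.442%). Ugt1a6b shares 74.5% of its windows of 75 bases with Ugt1a6a, so the calls of this pair may rest partly on the same reads. Sult3a1 had to be high on 1 diet to be among the 46. Without it, a count chosen after seeing the data, 4 of 45 passed, with Ugt1a9 alone on the higher side. DESeq2 passed the same 5, with Sult3a1 among them, and also Sult5a1 and Ugt2b38 as lower, against 2.45% of all genes by that test. At an unadjusted p under 0.05 there were 14 of the 46, with Sult3a1 among them, against 10.8% of all genes. The median log2 fold change (low isoleucine minus control) was -0.05 over the 46 genes and 0.01 over all genes tested, with 21 of 46 positive. The count of 5 rested on few libraries, and fewer of all genes also passed in the fits that lowered it. It was 0 without control fasted library 2 or 4 (0.165% and 0.0397% of all genes passed). It was also 0 without low isoleucine fasted library 2 or 3 (0.0461% and 0.0926%). It was 1 without control fasted library 1 or 3 (0.342% and 0.265%) or low isoleucine fasted library 4 (0.159%). It was 2 without low isoleucine refed library 1 or 2 (0.47% and 0.586%). It was 4 to 6 without any 1 of the 7 others (0.615% to 1.48%). The 41 genes that did not pass lay between -3.92 (Ugt2b38) and 3.28 (Sult1e1).

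**Figure D1:**
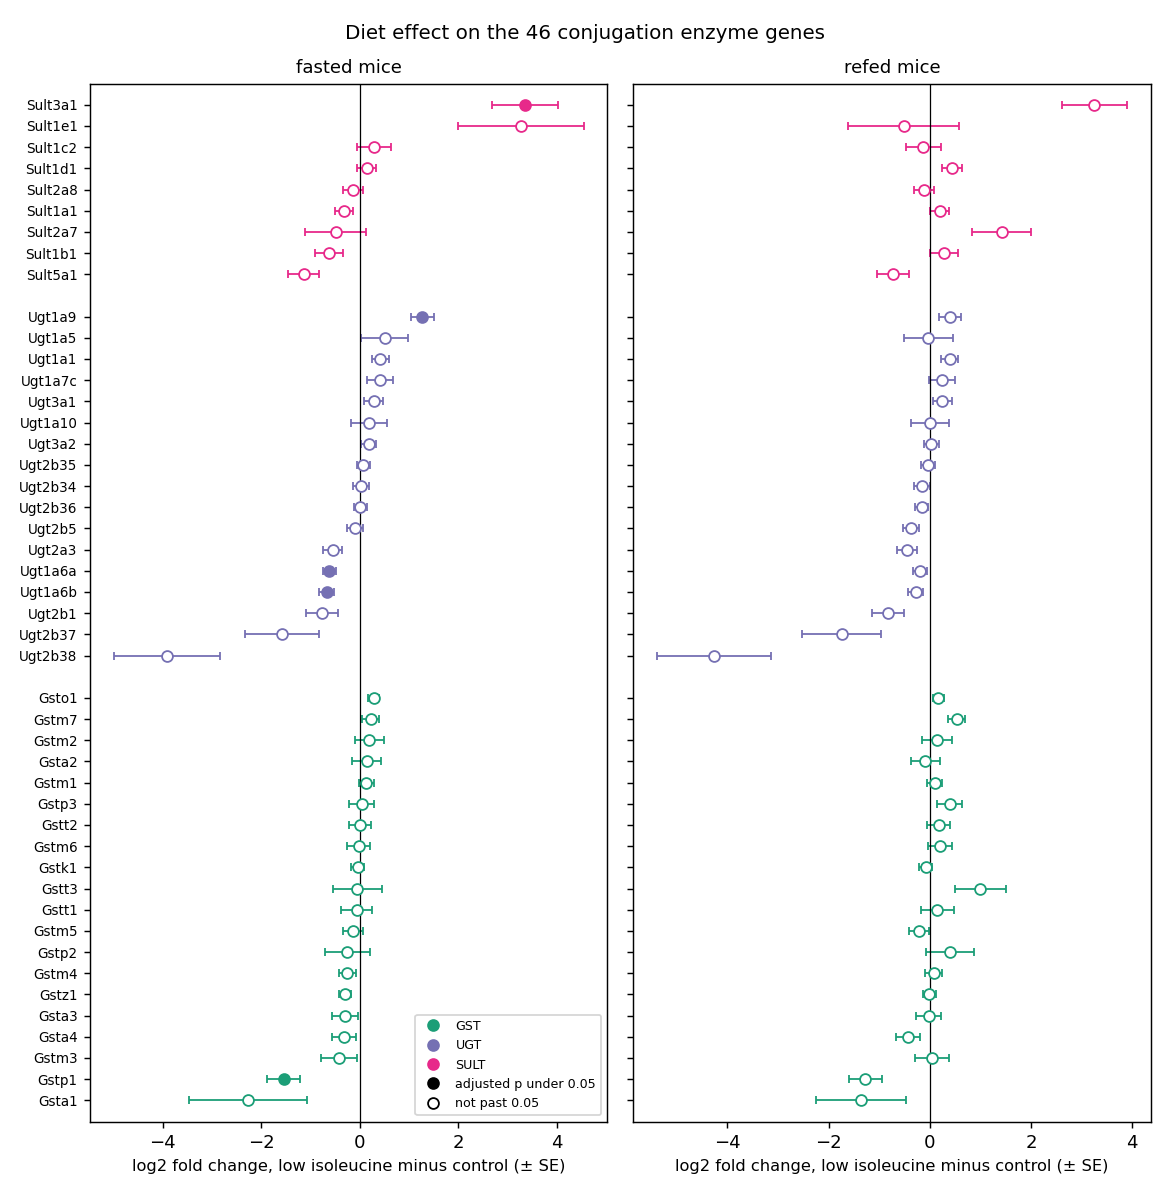
Log2 fold change (low isoleucine minus control, x axis, ± SE) of the 46 genes (y axis) in fasted mice (left) and refed mice (right), coloured by enzyme class, with filled points for an adjusted p under 0.05. The 5 filled points are all in fasted mice, and Sult3a1, Ugt2b38 and Gstp1 lie on the same side of 0 in both panels.

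Ugt1a9, an enzyme that glucuronidates bulky phenols, was 93.6, 90.7, 99.97 and 88.4 CPM in the control fasted libraries and 294, 211, 201 and 196 CPM in the low isoleucine fasted libraries. Every low isoleucine library was above the highest control library, and low isoleucine fasted library 1 was the highest. The fitted log2 fold change was 1.27 (SE 0.23, edgeR adjusted p = 0.0204). By edgeR it missed 0.05 without control fasted library 2 (adjusted p = 0.0684) or 4 (0.0626), or low isoleucine fasted library 2 (0.0613) or 3 (0.0598), and passed in the 12 other fits with 1 library left out.

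Ugt1a6a, which glucuronidates small planar phenols, went the other way at the same locus. Its level was 145, 150, 117 and 113 CPM in the control fasted libraries and 95.4, 91.0, 73.2 and 83.3 CPM in the low isoleucine fasted libraries. All 4 low isoleucine libraries lay under the lowest control library, with a log2 fold change of -0.62 (SE 0.13, edgeR adjusted p = 0.0428). Its near copy Ugt1a6b was at 154, 156, 136 and 129 CPM against 108, 94.6, 75.7 and 82.9 CPM, which also did not overlap, with a log2 fold change of -0.67 (SE 0.15, edgeR adjusted p = 0.0490). Both calls rested on the full set of libraries. Ugt1a6a passed in 7 of the 16 fits with 1 library left out and missed 0.05 without any 1 of the control fasted libraries, without low isoleucine fasted library 2, 3 or 4, or without low isoleucine refed library 1 or 2, with adjusted p up to 0.163. Ugt1a6b passed in 6 of 16 and missed 0.05 without those same libraries or control refed library 3, with adjusted p up to 0.181.

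Because these genes share their last exons, the Ugt1a counts were also taken as shares of their sum. Ugt1a9 made up 8.51%, 7.48%, 8.94% and 9.61% of Ugt1a CPM in the control fasted libraries and 19.1%, 15.8%, 16.6% and 14.1% in the low isoleucine fasted libraries. Ugt1a6a and Ugt1a6b together made up 27.2%, 25.2%, 22.7% and 26.3% against 13.2%, 13.9%, 12.3% and 12.0%. Ugt1a1 kept the largest share in both groups, at 60.1% ± 2.12 (SD, n = 4) and 63.8% ± 1.99 (SD, n = 4). The diet groups thus did not overlap in the shares of Ugt1a9 and of the Ugt1a6 pair.

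Ugt1a1 itself was 674, 694, 694 and 551 CPM in the control fasted libraries and 969, 857, 747 and 922 CPM in the low isoleucine fasted libraries. The groups did not overlap, but the log2 fold change of 0.42 (SE 0.17) did not pass (edgeR adjusted p = 0.362). The sum of the 7 genes was 1088 ± 122 CPM (SD, n = 4) in the control fasted group and 1368 ± 135 CPM (SD, n = 4) in the low isoleucine fasted group. Ugt1a5, Ugt1a7c and Ugt1a10 did not pass either.

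**Figure D2:**
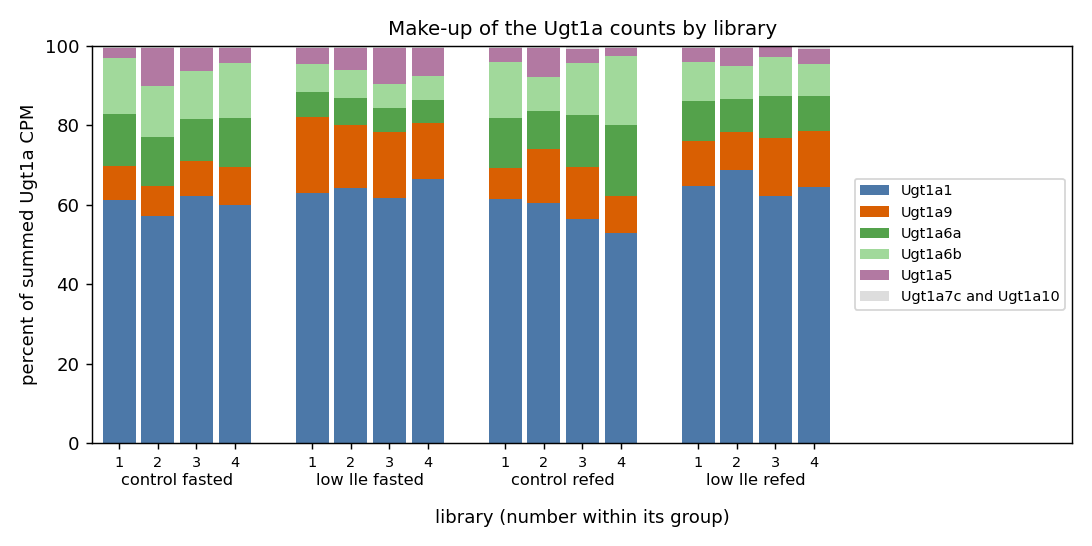
Share of the summed Ugt1a CPM (y axis, percent) held by each gene in each of the 16 libraries (x axis, 4 per group). In the low isoleucine fasted libraries Ugt1a9 holds 14.1% to 19.1% and the Ugt1a6 pair 12.0% to 13.9%, while in the control fasted libraries Ugt1a9 holds 7.48% to 9.61%.

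Gstp1, the pi-class transferase and one of the GST genes known to be more abundant in male than in female mouse liver, was the only GST gene to pass in the diet comparison of fasted mice. Its level was 511, 401, 453 and 899 CPM in the control fasted libraries and 149, 253, 184 and 189 CPM in the low isoleucine fasted libraries. The groups did not overlap, and control fasted library 4 was well above the other control libraries. The log2 fold change was -1.55 (SE 0.33, edgeR adjusted p = 0.0438), and -1.23 (adjusted p = 0.135) without control fasted library 4. The call held in 4 of the 16 fits with 1 library left out, namely those without a control refed library, with edgeR adjusted p up to 0.154 in the others. It was also lost with no filter on low counts (edgeR adjusted p = 0.133). Its neighbours Gstp2 and Gstp3 stood at means of 1.01 and 4.58 CPM in the control fasted group, and neither passed.

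The summed level of the 20 GST genes was 2779 to 3457 CPM in the control fasted libraries and 2090 to 2694 CPM in the low isoleucine fasted libraries. These ranges did not overlap. Gstp1 made up 899 of the 2779 CPM in control fasted library 4 and 149 of the 2694 CPM in low isoleucine fasted library 1. Without Gstp1 the summed ranges therefore overlapped. Within the sums the mean of Gstp1 was 566 against 194 CPM. That of Gstz1, a zeta-class enzyme of tyrosine breakdown, was 805 against 654 CPM, and that of Gsta3 761 against 618 CPM. Gstz1, named after its values were seen, did not pass (log2 fold change -0.30, SE 0.13, edgeR adjusted p = 0.379). The abundant Gstm1 (330 ± 66.0 against 361 ± 32.8 CPM, SD, n = 4), a mu-class enzyme, and Gstt1 (121 ± 25.0 against 116 ± 7.88 CPM, SD, n = 4), a theta-class enzyme, differed by less than the spread between libraries. Gsta2 was 8.20 ± 1.85 against 9.04 ± 2.29 CPM (SD, n = 4). The 19 GST genes that did not pass had log2 fold changes from -2.27 (Gsta1) to 0.28 (Gsto1).

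Sult3a1, an amine sulfotransferase known as female-predominant in mouse liver, was scarce in all libraries of these male mice. The control fasted libraries held 1, 4, 0 and 3 counts, and the low isoleucine fasted libraries held 17, 20, 16 and 37. Each low isoleucine library had more counts than any control library. The 0 in control fasted library 3 allows up to 3 counts, or 0.104 CPM, where these limits cover counting error only. Its log2 fold change was 3.36 (SE 0.67, edgeR adjusted p = 0.0294). It missed 0.05 without any 1 of the control fasted libraries or without low isoleucine fasted library 2, 3 or 4, with edgeR adjusted p up to 0.0943.

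Sult1e1, the oestrogen sulfotransferase, was 0.249, 1.23, 0.414 and 0.257 CPM in the control fasted libraries and 12.0, 3.18, 4.30 and 1.53 CPM in the low isoleucine fasted libraries. The groups did not overlap, but the log2 fold change of 3.28 (SE 1.28) did not pass (edgeR adjusted p = 0.336). Without control refed library 2, a library that this comparison does not contrast but whose spread enters the fit, the edgeR adjusted p was 0.0194 with a log2 fold change of 3.27. In that library Sult1e1 stood at 16.6 CPM against 0.161 to 0.298 CPM in the other control refed libraries.

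The other sulfotransferases did not pass by edgeR with all libraries in fasted mice. Sult5a1 was 12.4, 8.26, 5.25 and 11.5 CPM in the control fasted libraries and 6.24, 4.25, 2.41 and 4.16 CPM in the low isoleucine fasted libraries, with a log2 fold change of -1.14 (SE 0.31, edgeR adjusted p = 0.115). It passed by DESeq2 (-1.13, adjusted p = 0.0167) and, by edgeR, without low isoleucine fasted library 1 (-1.38, adjusted p = 0.0495). Control fasted library 3 overlapped the low isoleucine range. Sult1b1, which sulfates thyroid hormones, was 26.5 ± 7.47 against 17.2 ± 8.24 CPM (SD, n = 4), and it too passed by edgeR without low isoleucine fasted library 1 (-1.01, adjusted p = 0.0499). Sult1a1 was 490 ± 114 against 392 ± 25.998 CPM (SD, n = 4). Sult2a8 was 1094 ± 75.7 against 999 ± 322 CPM (SD, n = 4).

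**Figure D3:**
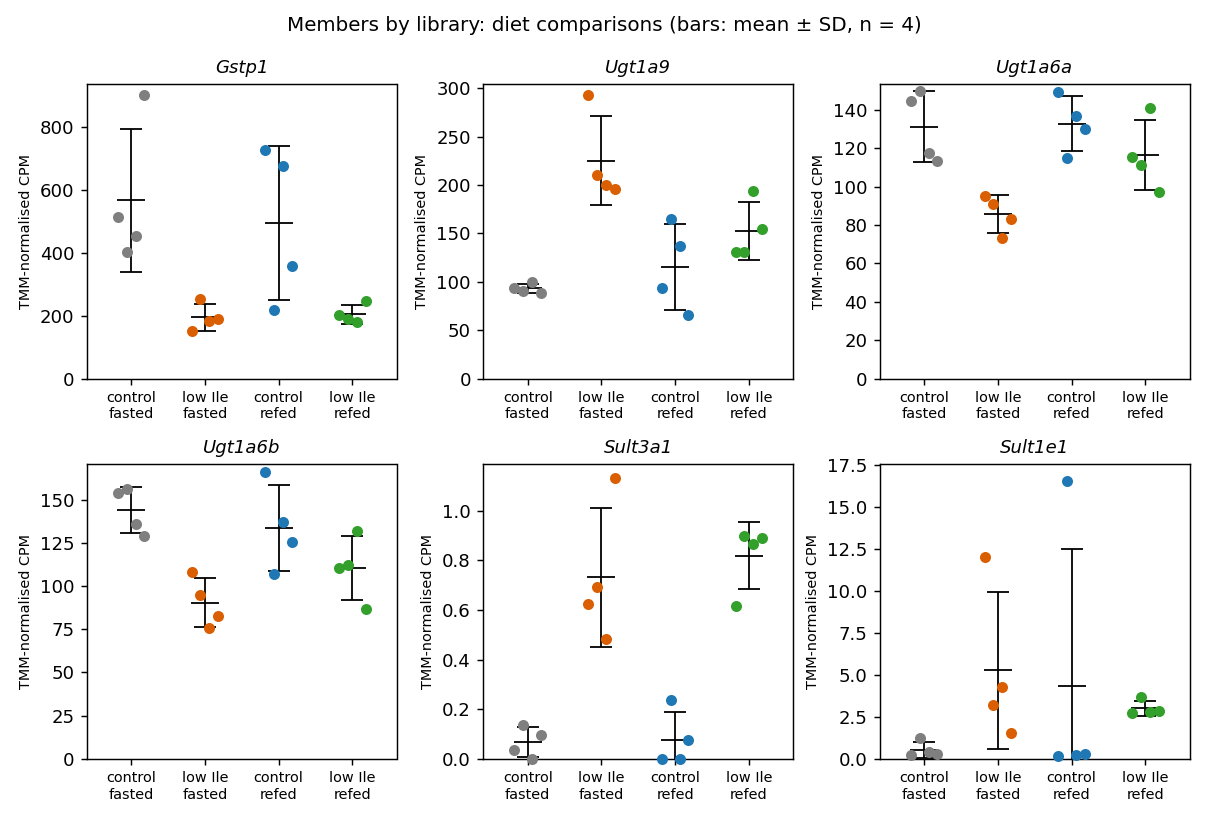
TMM-normalised CPM (y axis) of 6 genes in each library (points), by group (x axis), with the mean and SD of 4 libraries (bars, drawn down to 0 at most). Ugt1a9 and Sult3a1 are higher and Gstp1, Ugt1a6a and Ugt1a6b lower in all 4 low isoleucine fasted libraries than in all 4 control fasted libraries, and 1 control refed library stands out for Sult1e1 at 16.6 CPM.

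Of the 46 genes 8 had groups that did not overlap in fasted mice, against 8.07% of all genes tested. Ugt1a9, Ugt1a1, Sult3a1 and Sult1e1 lay on the higher side (4 of 46, against 3.67% of all genes), and Gstp1, Ugt1a6a, Ugt1a6b and Ugt2b38 on the lower side (4 of 46, against 4.4%). Without Sult3a1 the count was 7 of 45, with 3 on the higher side. Markers of other cells also differed between these groups. The summed level of 8 Kupffer cell markers, all detected, was 261 to 340 CPM in the control fasted libraries and 161 to 224 CPM in the low isoleucine fasted libraries, although 0 of the 8 passed by edgeR, DESeq2 or limma-voom (5 at an unadjusted p under 0.05 by edgeR, against 10.8% of all genes). Lymphocyte markers summed to 4.01 to 5.36 against 1.68 to 3.82 CPM, with Cd4 passing as lower, and erythroid markers to 198 to 252 against 246 to 636 CPM, with Hbb-bs passing as higher. Alas2, also on the erythroid list, went the other way, at 57.6 to 72.7 against 16.5 to 47.9 CPM, and passed as lower by DESeq2 and limma-voom but not by edgeR. The hepatocyte markers summed to 61020 to 94050 against 94520 to 114100 CPM. Most of this sum was Alb, at 39260 to 73400 against 71680 to 92120 CPM, which overlapped. Of the 7 markers 0 passed by edgeR and 1 had an unadjusted p under 0.05, with a median log2 fold change of 0.12. DESeq2 passed Alb alone. The part of these differences in the enzyme results was not tested.

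The same question was then asked in refed mice. Of the 46 genes 0 passed by edgeR, against 0.174% of all genes (0.0603% higher and 0.114% lower). At an unadjusted p under 0.05 there were 12 of the 46, with Sult3a1 among them, against 9.76% of all genes. DESeq2 passed 3 (Gstp1, Ugt2b38 and Sult3a1), against 1.15% of all genes by that test, and limma-voom passed 1 (Sult3a1), against 0.168%. Both counts include Sult3a1, which reached the count limit only through the low isoleucine libraries. Without it, Gstp1 and Ugt2b38 are left by DESeq2 and no member by limma-voom. The median log2 fold change was -0.0037 over the 46 genes and -0.01 over all genes. Groups did not overlap for 3 of the 46 genes, against 4.44% of all genes. Gstm7 and Sult3a1 lay on the higher side for low isoleucine (2 of 46, against 2.2% of all genes) and Ugt2b38 on the lower side (1 of 46, against 2.24%). Without Sult3a1 the count was 2 of 45, with 1 on each side. The summed Kupffer cell markers were 178 to 371 CPM in control refed and 136 to 281 CPM in low isoleucine refed libraries.

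Sult3a1 had 0, 7, 0 and 3 counts in the control refed libraries and 21, 29, 29 and 31 counts in the low isoleucine refed libraries. At 3.25 (SE 0.64), the log2 fold change lay at the threshold (edgeR adjusted p = 0.0523). By edgeR it passed without control refed library 2 (4.49, adjusted p = 0.0142) or control fasted library 3 (3.26, adjusted p = 0.0457). Gstp1 was 725, 217, 676 and 358 CPM in the control refed libraries and 202, 188, 179 and 246 CPM in the low isoleucine refed libraries. Only control refed library 2 fell within the low isoleucine range, and the log2 fold change was -1.28 (SE 0.33, edgeR adjusted p = 0.159), or -1.54 (adjusted p = 0.0373) without that library.

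Ugt1a9 was 93.3, 165, 137 and 66.0 CPM in the control refed libraries and 131, 131, 194 and 154 CPM in the low isoleucine refed libraries, with a log2 fold change of 0.40 (SE 0.22, edgeR adjusted p = 0.587). The refed groups overlapped, unlike the fasted groups. Ugt1a6a was 133 ± 14.3 against 116 ± 18.2 CPM and Ugt1a6b 134 ± 24.9 against 110 ± 18.4 CPM (SD, n = 4 each), and neither passed. Their joint share of Ugt1a CPM was 18.2% to 35.3% in the control refed libraries and 16.6% to 20.5% in the low isoleucine refed libraries. Gstm7, named after its values were seen, was 20.2 to 31.3 CPM in control refed and 31.3 to 42.9 CPM in low isoleucine refed libraries, with a log2 fold change of 0.53 (SE 0.18, edgeR adjusted p = 0.314).

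Whether the diet effect differed between feeding states was tested as an interaction (the refed effect minus the fasted effect). None of the 46 genes passed by edgeR, DESeq2 or limma-voom, nor did any of all genes by edgeR (0% passed, and 928 genes, 6.22%, had an unadjusted p under 0.05), while DESeq2 passed 36 genes that are not among the 46. Among the members 5 had an unadjusted p under 0.05 by edgeR. They were Ugt1a9 (-0.87, SE 0.32, adjusted p = 0.687), Ugt1a6a (0.42, SE 0.19), Sult1b1 (0.91, SE 0.40), Sult2a7 (1.91, SE 0.84) and Sult1e1 (-3.79, SE 1.68), the last 4 with an adjusted p of 0.793. The difference for Sult1e1 was 0.35 without control refed library 2. The diet effects on Ugt1a9 and the Ugt1a6 pair in fasted mice were therefore not shown to differ from those in refed mice.

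Across both feeding states, Sult3a1 and Ugt2b38 were the members for which all 8 libraries of one diet lay beyond all 8 of the other. The share of all genes tested was 0.208% (0.0737% higher and 0.134% lower on low isoleucine), and nothing is read from the 2 members against it. The 8 libraries that brought Sult3a1 over the count limit are exactly those in which it is higher, and without it 1 of 45 is left. Sult3a1 was 0.482 to 1.13 CPM on the low isoleucine diet and 0 to 0.235 CPM on the control diet. Ugt2b38 was 0.176 to 1.36 CPM on the low isoleucine diet and 1.81 to 34.3 CPM on the control diet.

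Ugt2b38, one of the Ugt2b enzymes, varied widely among the control libraries. It was 2.10, 2.53, 21.7 and 30.2 CPM in the control fasted libraries and 1.36, 0.725, 0.783 and 0.886 CPM in the low isoleucine fasted libraries. In refed mice it was 3.54, 1.81, 34.3 and 4.37 CPM against 0.176, 0.279, 0.928 and 0.861 CPM. Control fasted libraries 3 and 4 and control refed library 3 were far above the other control libraries, and these in turn were above every low isoleucine library. By edgeR, it had log2 fold changes of -3.92 (SE 1.08, edgeR adjusted p = 0.134) in fasted and -4.27 (SE 1.13, edgeR adjusted p = 0.188) in refed mice. DESeq2 passed both, with adjusted p of 0.00492 and 0.00272, and limma-voom passed neither (0.316 and 0.448). Without control refed library 3 the edgeR values were -3.92 (adjusted p = 0.0479) in fasted and -2.52 (adjusted p = 0.446) in refed mice.

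The same 3 control libraries were also the highest of the 8 control libraries for Ugt2b1 and for Ugt2b37, which is named after its values were seen. Ugt2b1 was 591, 626 and 647 CPM in them and 213 to 349 CPM in the other 5, while the low isoleucine libraries held 144 to 363 CPM. Ugt2b37 was 6.25, 4.87 and 5.71 CPM in them and 0.483 to 2.82 CPM in the other 5. They also had the highest share of counts from the Mup genes, which encode the major urinary proteins made mainly in male liver, at 10.6%, 11.9% and 13.8% against 2.81% to 9.64%. The Mup share was 3.41% to 7.08% in low isoleucine fasted and 3.54% to 7.00% in low isoleucine refed libraries. Other genes ranked over the 8 control libraries did not share this order. Control fasted libraries 3 and 4 and control refed library 3 ranked 4, 3 and 1 for Ugt2b5. The same libraries ranked 5, 1 and 3 for Gstp1 and 7, 2 and 3 for Sult5a1. The part of these libraries' other differences in the Ugt2b values was not tested. For Ugt2b1 the log2 fold change was -0.77 (SE 0.32, edgeR adjusted p = 0.375) in fasted and -0.82 (SE 0.32, adjusted p = 0.420) in refed mice. Ugt2b37 had -1.57 (SE 0.75) and -1.74 (SE 0.78), with edgeR adjusted p of 0.474 and 0.481.

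**Figure D4:**
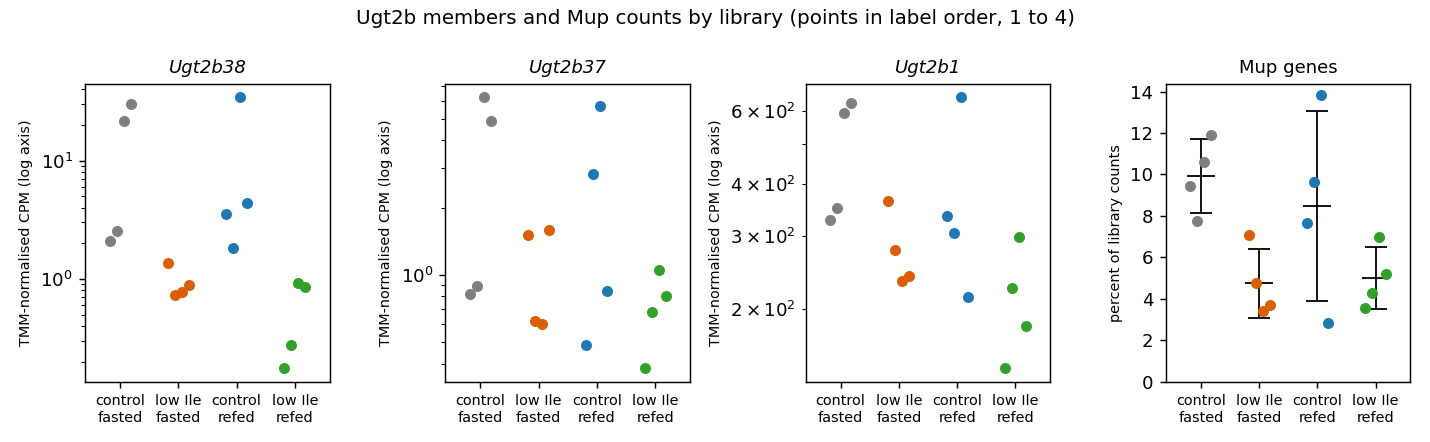
TMM-normalised CPM on a log axis (y) of Ugt2b38, Ugt2b37 and Ugt2b1, and the percent of library counts from Mup genes (linear axis, bars mean and SD), in each library by group (x axis, 4 points per group in label order). Control fasted libraries 3 and 4 and control refed library 3 are the highest 3 points in each panel.

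Ugt2b5 and Ugt2b36 are abundant members of the family, as is Ugt2b1. Ugt2b5 was 840 ± 107 against 783 ± 99.9 CPM in fasted and 815 ± 194 against 630 ± 66.3 CPM in refed mice (control against low isoleucine, SD, n = 4 each). Ugt2b36 was 474 ± 26.1 against 476 ± 86.7 CPM in fasted and 470 ± 70.0 against 420 ± 28.4 CPM in refed mice. The summed Ugt2b level was 2397 ± 286 CPM in control fasted and 2147 ± 321 CPM in low isoleucine fasted livers (SD, n = 4). Ugt3a1, of a family that uses UDP-sugars other than UDP-glucuronic acid, was 166 ± 20.9 against 201 ± 31.9 CPM in fasted mice, and with all libraries it did not pass by edgeR in any comparison.

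Refed livers were then compared with fasted livers on each diet, where far more genes passed. On the control diet 17.1% of all genes passed by edgeR, and of the 46 enzymes 5 passed (10.9%). Gstm3, Gsta4 and Ugt2b34 were higher after refeeding (3 of 46, against 8.91% of all genes), and Gstt2 and Sult1d1 were lower (2 of 46, against 8.2%). DESeq2 passed these 5 and also Gsta3 and Sult1e1 as higher, against 20.1% of all genes by that test. The count was 2 without control fasted library 1 or 4 (12% and 12.8% of all genes passed). It was 3 without control fasted library 3, control refed library 1 or 3, low isoleucine fasted library 2 or 4 or low isoleucine refed library 2 (12% to 15.7%). It was 4 to 6 otherwise (12.5% to 18.2%). The median log2 fold change (refed minus fasted) was -0.06 over the 46 genes and 0.01 over all genes. With library size alone in place of TMM scaling, the median of all genes moved to 0.135. In that fit 5 members passed as higher and 0 as lower, against 17.7% of all genes in either direction. Gstt2 then had -0.66 (edgeR adjusted p = 0.0627) and Sult1d1 -0.55 (adjusted p = 0.0685).

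Gstm3, a mu-class transferase, was 1.46, 4.13, 2.07 and 1.06 CPM in the control fasted libraries and 5.35, 5.71, 4.07 and 8.98 CPM in the control refed libraries. Control fasted library 2 lay just within the refed range, and control refed library 4 was the highest. Its log2 fold change of 1.47 (SE 0.35, edgeR adjusted p = 0.00825) passed in all 9 other settings and in all 16 fits with 1 library left out. Gsta4, an alpha-class enzyme that conjugates the reactive aldehydes of lipid peroxidation, was 9.35, 13.9, 11.2 and 7.70 CPM against 21.2, 11.7, 13.6 and 23.97 CPM. Its groups overlapped, and the log2 fold change was 0.74 (SE 0.24, edgeR adjusted p = 0.0415). The call was lost with no filter on low counts, by limma-voom and in a fit of only the compared groups. By edgeR it also missed 0.05 without control fasted library 1, 3 or 4, control refed library 1 or 4, low isoleucine fasted library 2 or 4 or low isoleucine refed library 2, with edgeR adjusted p up to 0.123. Control refed libraries 1 and 4 were its highest libraries.

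Ugt2b34 was 443, 431, 456 and 457 CPM in the control fasted libraries and 572, 715, 787 and 448 CPM in the control refed libraries, where library 4 fell within the fasted range. Its log2 fold change was 0.50 (SE 0.16, edgeR adjusted p = 0.0431), and 0.63 (adjusted p = 0.00672) without control refed library 4. The call was lost by limma-voom and in a fit of only the compared groups. By edgeR it also missed 0.05 without any 1 of the control fasted libraries, control refed library 2 or 3, low isoleucine fasted library 2 or 4 or low isoleucine refed library 1 or 2, with edgeR adjusted p up to 0.152. Gstt2, a theta-class transferase, was 81.7, 74.5, 63.1 and 85.8 CPM against 57.4, 55.6, 35.0 and 31.5 CPM. Its groups did not overlap, and the log2 fold change was -0.77 (SE 0.23, edgeR adjusted p = 0.0285). The call was lost with no filter on low counts and in 5 of the 16 fits with 1 library left out, with edgeR adjusted p up to 0.0899. Those 5 were without control fasted library 1, 2 or 4 or control refed library 3 or 4.

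Sult1d1, which sulfates catecholamines, was 90.4, 143, 110 and 114 CPM in the control fasted libraries and 56.9, 92.4, 57.2 and 78.9 CPM in the control refed libraries. Only control refed library 2 reached the fasted range. For Sult1d1 the log2 fold change was -0.68 (SE 0.19, edgeR adjusted p = 0.0234), and the call was lost without control fasted library 2 or control refed library 1 or 3 (adjusted p up to 0.0827). Gsta3 had a log2 fold change of 0.71 (SE 0.26, edgeR adjusted p = 0.0699) on this diet, and 0.92 (adjusted p = 0.00691) without control refed library 4. Groups did not overlap for 2 of the 46 genes, against 19.1% of all genes. Ugt2b35, named after its values were seen, lay higher after refeeding (1 of 46, against 9.5% of all genes) and Gstt2 lower (1 of 46, against 9.62%).

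On the low isoleucine diet 21.4% of all genes passed, and 4 of the 46 enzymes passed (8.7%). These were Gstm3, Gsta3, Ugt1a6a and Sult2a7, each higher after refeeding (4 of 46, against 9.6% of all genes), while 0 passed as lower by edgeR or limma-voom and 2 by DESeq2 (against 11.8% of all genes by edgeR). At an unadjusted p under 0.05 there were 11 of the 46, with Gsta1 among them, against 33.4% of all genes. The count was 2 without low isoleucine fasted library 3, against 18.1% of all genes in that fit. The median log2 fold change was 0.03 over the 46 genes and 0.02 over all genes, and the latter was 0.13 with library size alone. DESeq2 passed 8 members, against 24.5% of all genes by that test. Of these 6 were higher, and Gsta1 was among the 6. Without control refed library 4 edgeR passed 8, against 23.9% of all genes in that fit, made up of the same 4 and Gstt2, Ugt1a9, Ugt3a1 and Ugt3a2 as lower. In both feeding comparisons the share of members that passed was under that of all genes.

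Gstm3 was 2.35, 1.24, 1.41 and 1.53 CPM in the low isoleucine fasted libraries and 6.87, 6.97, 4.55 and 6.54 CPM in the low isoleucine refed libraries. The groups were well apart, with a log2 fold change of 1.93 (SE 0.36, edgeR adjusted p = 0.00112). Gsta3, the most abundant alpha-class gene of these livers, was 868, 589, 521 and 492 CPM in fasted and 1253, 1140, 1337 and 1158 CPM in refed libraries. These groups did not overlap either, and the log2 fold change was 0.99 (SE 0.26, edgeR adjusted p = 0.0120). Both genes passed in all 9 other settings and in all 16 fits with 1 library left out.

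Ugt1a6a was 95.4, 91.0, 73.2 and 83.3 CPM in the low isoleucine fasted libraries and 115, 111, 141 and 97.3 CPM in the low isoleucine refed libraries. The refed libraries all lay above the fasted ones, and the refed mean of 116 CPM was nearer to the control groups (131 and 133 CPM). The log2 fold change was 0.44 (SE 0.13, edgeR adjusted p = 0.0261), and it missed 0.05 without low isoleucine fasted library 3 or 4 or low isoleucine refed library 1 or 3 (adjusted p up to 0.0862). Sult2a7, a hydroxysteroid sulfotransferase, was 1.84, 0.864, 0.813 and 1.47 CPM in fasted and 4.79, 3.38, 10.4 and 2.53 CPM in refed libraries. Refed library 3 was the highest, and the log2 fold change was 2.08 (SE 0.60, edgeR adjusted p = 0.0218), or 1.52 at the lowest with 1 library left out. That call was lost with no filter on low counts, and without low isoleucine fasted library 2 or 3 or low isoleucine refed library 3 (edgeR adjusted p up to 0.0770).

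Ugt1a9 had a log2 fold change of -0.56 (SE 0.22, edgeR adjusted p = 0.0843) on the low isoleucine diet, where every refed library (131 to 194 CPM) lay under every fasted library (196 to 294 CPM). Gsta1, an alpha-class gene of few reads, held 7, 45, 7 and 2 counts in the control fasted libraries and 83, 53, 0 and 142 counts in the control refed libraries. On the low isoleucine diet it held 0, 2, 5 and 6 counts in fasted and 14, 46, 14 and 39 counts in refed libraries, with a log2 fold change of 2.96 (SE 1.16, edgeR adjusted p = 0.0834). A library with 0 counts allows up to 3, or 0.120 CPM in control refed library 3 and 0.110 CPM in low isoleucine fasted library 1. Groups did not overlap for 9 of the 46 genes, against 24.6% of all genes. Of these, 7 lay on the higher side after refeeding (against 11.6% of all genes) and 2 on the lower side (against 13.1%). Gsta1, among the 7, reached the count limit almost only through refed libraries, where it is higher. Without it the count was 8 of 45, with 6 on the higher side.

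**Figure D5:**
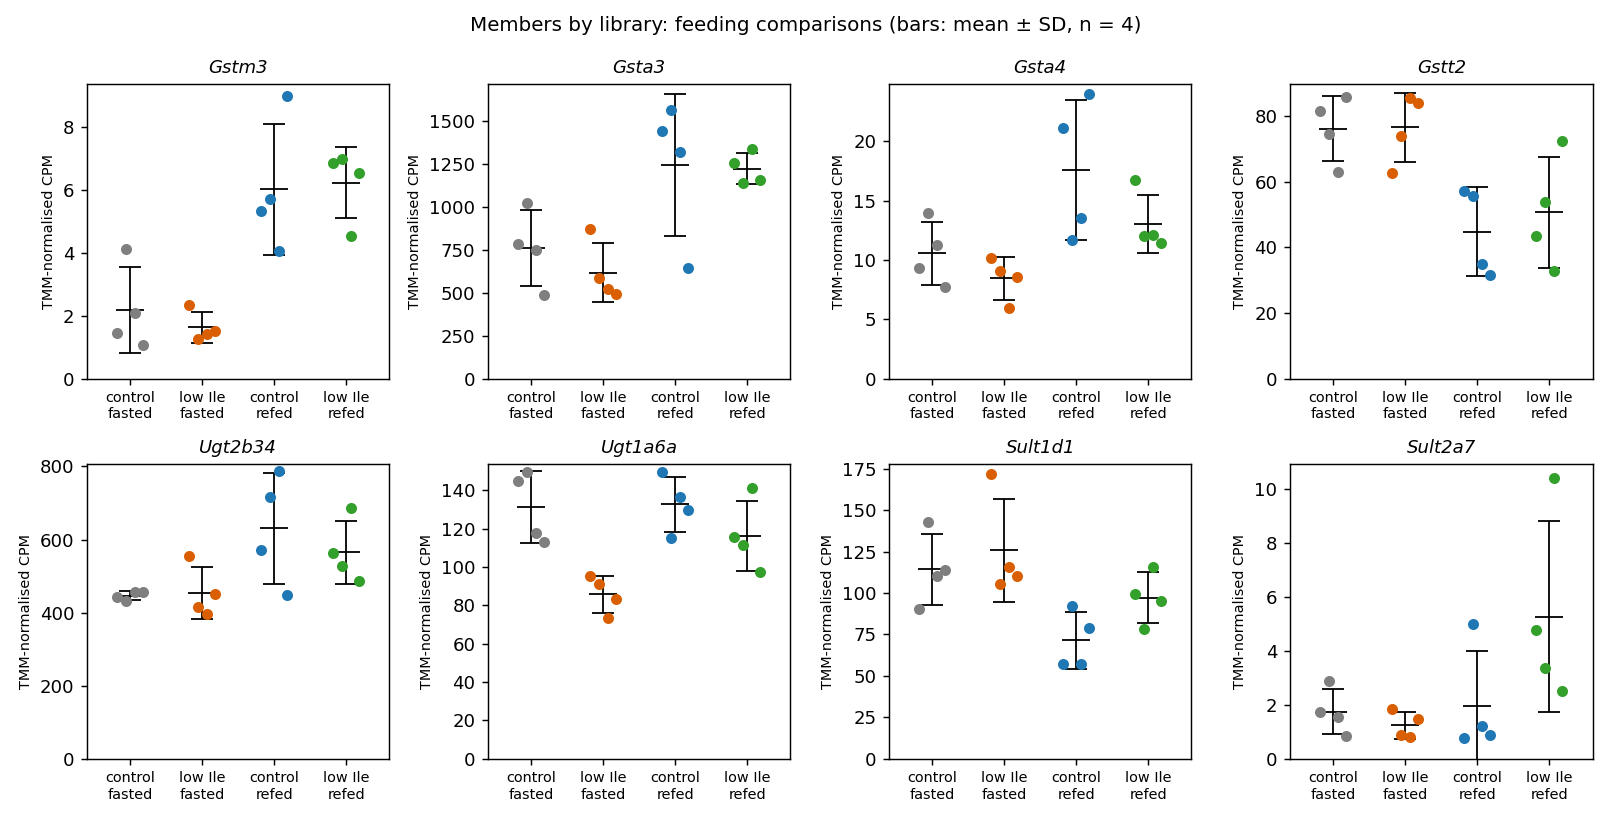
TMM-normalised CPM (y axis) in each library (points) of the genes that passed in a feeding comparison, by group (x axis), with the mean and SD of 4 libraries (bars, drawn down to 0 at most). Gstm3 is at 1.06 to 4.13 CPM in fasted and 4.07 to 8.98 CPM in refed libraries, and Gstt2 and Sult1d1 are lower in the control refed group.

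Genes that supply the cofactors, carry the conjugates or control these enzymes were counted by list. Of the 83 genes tested in 7 lists, 0 passed by edgeR or limma-voom in either diet comparison or the interaction. DESeq2 passed 4 in fasted mice (Abcb4, Gsr, Impad1 and Inmt, against 2.45% of all genes by that test), 2 in refed mice (As3mt and Chac1, against 1.15%) and 0 in the interaction. By edgeR 15 had an unadjusted p under 0.05 in fasted mice (against 10.8% of all genes), 9 in refed mice (against 9.76%) and 4 in the interaction (against 6.22%). Those of fasted mice were 1 of 12 glutathione supply genes, 0 of 8 genes of UDP-glucuronic acid supply, 1 of 8 of PAPS supply, 7 of 16 other conjugation enzymes, 1 of 8 other glutathione transferases, 2 of 14 transporters and 3 of 17 regulators. In the feeding comparison on the control diet, 2 of 12 glutathione supply genes were higher and 0 lower, 3 of 8 UDP-glucuronic acid genes were higher and 0 lower, and 2 of 8 PAPS genes were higher and 2 lower. Of all genes 8.91% were higher and 8.2% lower in that comparison.

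Among them, Gclc, the catalytic subunit of the rate-limiting step of glutathione synthesis, had a log2 fold change of 0.67 (SE 0.18) and Ugdh, which makes UDP-glucuronic acid, 0.55 (SE 0.16), with edgeR adjusted p of 0.0172 and 0.0218. The PAPS synthases went opposite ways after refeeding on the control diet, with Papss1 at 1.05 (SE 0.19, edgeR adjusted p = 0.00149) and Papss2 at -0.71 (SE 0.19, edgeR adjusted p = 0.0153). Slc26a1, a sulfate transporter, was higher after refeeding on both diets, by 0.69 (SE 0.14, edgeR adjusted p = 0.00272) and 0.82 (SE 0.14, adjusted p = 0.000566). Papss1 was at 4.19 to 4.70 CPM in control fasted and 6.004 to 12.2 CPM in control refed libraries.

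On the low isoleucine diet, 2 of 12 glutathione supply genes were higher and 1 lower. Chac1, which degrades glutathione, was 0.151 to 0.587 CPM in low isoleucine fasted and 4.67, 16.3, 0.988 and 29.2 CPM in low isoleucine refed libraries, with a log2 fold change of 4.96 (SE 0.89, edgeR adjusted p = 0.00132). Chac1 was at the lowest of these in refed library 3. List counts of refeeding are read against 8.91% of all genes higher and 8.2% lower on the control diet, and 9.6% and 11.8% on the low isoleucine diet. Of 14 conjugate transporters, 1 was higher and 3 lower on the control diet, with 1 in each direction under low isoleucine. Of 17 regulators, 3 were higher and 3 lower on the control diet, with 4 in each direction under low isoleucine. Of 16 other conjugation enzymes, 0 were higher and 2 lower on the control diet, with 1 higher and 1 lower under low isoleucine. Nfe2l2, the activator of antioxidant response genes, was higher on both diets, by 0.79 (SE 0.12) and 0.69 (SE 0.12), with edgeR adjusted p of 0.000288 and 0.000667. Ppara, a receptor active in fasting, was lower on both, at -1.31 (SE 0.20) and -1.77 (SE 0.21), with edgeR adjusted p of 0.000386 and 2.3e-05.

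The authors' deposited tables list all 46 genes in both diet comparisons. In the authors' deposited table for fasted mice 3 of them have an adjusted p under 0.05, namely Ugt1a9 (log2 fold change 1.27, adjusted p = 0.00552), Gstp1 (-1.55, adjusted p = 0.0307) and Ugt1a6b (-0.68, adjusted p = 0.0444). Ugt1a6a and Sult3a1 stand there at an adjusted p of 0.0682. In the authors' deposited table for refed mice 0 of the 46 are under 0.05.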

How the data were processed

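The 16 libraries sequenced were poly-A enriched, stranded RNA libraries of male mouse liver, per the labels' protocols. The authors deposited a table of expected counts from RSEM, per the file headers, and 10.2% of its values are not whole. No aligner, build or use of strand in counting was given in the sources used here. As tools, the submitters' processing notes list R 3.5.3, limma and edgeR. For each diet comparison the authors also deposited p-values, an F score, log2 CPM and log2 fold changes, per the file headers.

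Expected counts were rounded. Of 51912 identifiers 51633 had a symbol. Genes kept by filterByExpr (14920, among them all 46 members) were scaled by TMM, and robust quasi-likelihood fits with a mean for each group used all 16 libraries (R 4.3.3, edgeR 4.0.16, limma 3.58.1, DESeq2 1.42.0). Contrasts were low isoleucine minus control in each feeding state, their difference, and refed minus fasted on each diet, with Benjamini-Hochberg adjustment over every tested gene and a threshold of 0.05. SE was taken as the size of the log2 fold change over the root of F. Comparisons that share a group share its libraries. The method was tested on simulated data.

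The members and lists were chosen with earlier results of these data known. Named with values, by library or as a range or a mean with SD, were members that passed, the 3 highest of each class per kilobase and a list of others. Labels carry a mark (RL, R, L, N) once per group. Residuals of libraries with the same mark had a median correlation of 0.03 (-0.33 to 0.32), so the marks were not taken to pair libraries. Alternatives were DESeq2 size factors, library size alone, no filter, at least 1 CPM in 4 libraries, the DESeq2 Wald test, limma-voom, a non-robust fit, only the compared groups, a replicate block by mark, and leaving out each library. Positions and exon lengths are from GENCODE M21 (GRCm38), which may not be the authors' annotation.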

Additional observations from a re-analysis of the deposited data

Results flagged for a closer look

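Of 108 groups of 4 libraries examined for the 27 named genes, 12 held 1 library far from the other 3 by Dixon's criterion. Chance flags about 1 in 20 groups, or 5.4 here. The libraries set high, in CPM, were control fasted 2 for Gsta1 (1.54) and for Sult1e1 (1.23), control refed 2 for Sult1e1 (16.6) and for Sult2a7 (5.005), and low isoleucine refed 2 for Sult1e1 (3.69). Control refed 3 was high for Ugt2b38 (34.3), low isoleucine fasted 1 for Ugt1a9 (294) and Sult1d1 (172), and low isoleucine refed 1 for Gsta4 (16.7). The libraries set low were control fasted 2 for Sult2a8 (982), control fasted 4 for Ugt1a1 (551) and low isoleucine refed 1 for Sult3a1 (0.617). Sult1e1 was set apart in 3 of its 4 groups.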

How the results depend on the processing

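Every alternative gave the same direction as the reported value for each called member. The count of members that passed in the diet comparison of fasted mice was 5, and 3 with a replicate block by mark, 7 by DESeq2 and 4 with no filter, with the 1 CPM filter and with the non-robust fit. Of all genes 0.516%, 2.45%, 0.301%, 0.894% and 0.798% passed in these fits. Under the block the calls of Gstp1 (edgeR adjusted p = 0.110) and Ugt1a6a (0.0603) for diet in fasted mice and of Gsta4 (0.0650) and Ugt2b34 (0.0577) for feeding on the control diet were lost. In refed mice the count was 0, and 1 with no filter, 3 by DESeq2, 1 by limma-voom and 1 with the replicate block. Of all genes 0.101%, 1.15%, 0.168% and 0.168% passed in these fits. Sult3a1 is in each of these counts above 0. For feeding on the control diet the count was 5, and 7 by DESeq2 and 3 with no filter, by limma-voom and with only the compared groups. Of all genes 20.1%, 7.14%, 16.5% and 12.2% passed in these fits. For feeding on the low isoleucine diet the count was 4, and 3 with no filter, 7 with library size alone, 8 by DESeq2 and 8 with only the compared groups. Of all genes 9.36%, 21.8%, 24.5% and 21.9% passed in these fits. Both counts of 8 include Gsta1. The interaction stayed at 0 in every setting run. With 1 library left out, the counts ran from 0 to 6 and from 0 to 2 for diet in fasted and refed mice, from 2 to 6 and from 2 to 8 for feeding on the control and low isoleucine diets, and were 0 for the interaction. Leaving out a library also lowers the residual degrees of freedom of the shared fit. Over all genes, the 115 calls in fasted mice became 365 by DESeq2, 193 with only the compared groups and 77 with the replicate block, the 26 in refed mice became 172 by DESeq2 and 3 with only the compared groups, and the 0 of the interaction became 36 by DESeq2. With 1 library left out they ran from 6 to 222 in fasted mice, from 3 to 89 in refed mice and from 0 to 1 for the interaction. For feeding, 12% to 18.2% of all genes passed on the control diet and 16.1% to 23.9% on the low isoleucine diet in such fits. By CPM not divided by exon length, Gsta3 ranked 1, Gstp1 3 and Gstm1 4 among the GST genes, and Ugt2b36 4 among the UGT genes. The filter of at least 1 CPM left Sult3a1 untested. Counts under 10 in a library, as for Sult3a1 and Gsta1, limit their values.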

Other observations

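In the control fasted group the coefficient of variation ran from 2.73% (Ugt2b34) to 99.7% (Ugt2b38) over the UGT genes, from 10.5% (Gsto1) to 130% (Gsta1) over the GST genes and from 6.92% (Sult2a8) to 91.0% (Sult3a1) over the SULT genes. Sult1e1 in the control refed group had the highest of these values in any class and group, 189%. Outside that group's library 2, the highest Sult1e1 level in a control library was 1.23 CPM, and every low isoleucine library held 1.53 CPM or more. That library was set aside after its value was seen, so nothing is read from this separation. With all libraries the log2 fold change of Sult1e1 in refed mice was -0.52 (SE 1.09, edgeR adjusted p = 0.918). The summed GST level was 2090 to 2694 CPM in low isoleucine fasted and 3060 to 3347 CPM in low isoleucine refed libraries, ranges that did not overlap. Gsta3 made up 492 to 868 CPM and 1140 to 1337 CPM of these sums. The summed UGT level was 3770 to 5157 CPM and 3402 to 4561 CPM in the same groups, and the summed SULT level was 1254 to 2126 CPM and 1329 to 1622 CPM.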
